A study of Drosophila melanogaster with 18 samples.

Results

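The cytochrome P450 genes of the Drosophila melanogaster embryo were followed across development and across genetic changes to the E2F pathway. A gene was counted as a member when its current symbol in the annotation was Cyp followed by a number and a lower-case letter. The rule gave 82 genes with 86 probe sets, of 11228 annotated genes and 13966 probe sets on the array. RefSeq (Release 6) lists 85 genes with such a symbol, and 3 of them had no probe set here. The P450s known by Halloween names, such as spo, dib, sad and shd, do not carry a Cyp symbol and were handled as a separate list. The rule uses no measured value, although the family was chosen with earlier results of these data known.

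Cytochrome P450s are heme enzymes that insert an oxygen atom into lipids, steroid hormones and foreign compounds. Insect P450s fall into the mitochondrial clan and the microsomal clans 2, 3 and 4; the microsomal enzymes draw electrons from P450 reductase, the mitochondrial ones from ferredoxin. In the fly they make and inactivate the moulting hormone ecdysone, make cuticular hydrocarbons, and degrade plant toxins and insecticides in the midgut, fat body and Malpighian tubules. By the numbering of their families, 9 of the genes belonged to the mitochondrial clan, 4 to clan 2, 37 to clan 3 and 32 to clan 4.

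RNA of whole embryos was measured on 18 Affymetrix arrays, 2 for each of 9 groups. Embryos of 8 to 10 h carried the Arm-Gal4 driver, which uses the broadly active armadillo promoter, with UAS transgenes for E2f1/Dp, E2f2/Dp, E2f1336-805 or Rbf1; or were Dpa2/Dpa4 or E2f17172/E2f191 null mutants; or were the control, Arm-Gal4 crossed to yw. Embryos of 14 to 16 h were E2f17172/E2f191 mutants or that same control cross. The activator E2f1 and the repressor E2f2 are transcription factors that bind DNA with the partner Dp, Rbf1 is the retinoblastoma-family protein that binds them, and E2f1336-805 is a dominant negative E2f1 fragment without the DNA-binding domain, called the E2f1 fragment here. The mutants came from stocks balanced over CyO[Kr-GFP] for Dp and TM3[Kr-GFP] for E2f1, so their mothers were heterozygous and could supply wild-type product to the egg. Sorting was automated at 8 to 10 h and by eye, on missing fluorescence, at 14 to 16 h. All mutants lacked the driver that the control and the UAS crosses carried. Where a mutant is set against the control, its genotype and its stock, sorting and missing driver cannot be told apart. Each RNA sample came from about 200 to 700 embryos collected over 2 h and kept at 25 °C, and nothing in the labels tells whether both samples of a group were separate collections, so the p-values measure a spread that may be technical.

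Signals below are linear probe-set intensities after quantile normalization, with every value under 47.5 set to that floor. Log2 differences are given with the standard error (SE) of the fit. A difference passed when its limma p-value, adjusted by Benjamini-Hochberg over the 8976 units tested, was under 0.05; a unit is a named gene at its brightest probe set or a probe set without a single gene. The deposited medians of the arrays ranged from 209.15 to 247.75, and both arrays of a group correlated across units at 0.8935 to 0.9509, with the lowest value between the control arrays of 8 to 10 h. Whole-embryo RNA cannot separate a change in the number of cells that express a gene from a change in RNA per cell.

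Much of the family was dim in these embryos. Of the 86 probe sets, 41 passed a filter that dropped the dimmest 30% of all probe sets by mean, and 45 did not; 38 genes were tested. At the edge of the filter, Cyp12e1 (mean log2 signal 6.67) was kept and Cyp9c1 (6.51) was left out. Clan 3 had 22 of 37 genes tested, the mitochondrial clan 6 of 9, clan 2 3 of 4 and clan 4 7 of 32. The probe sets of Cyp312a1, Cyp313a3 and Cyp316a1 and 1 of the 2 of Cyp318a1 were at the floor on every array, and 31 probe sets were at the floor on at least 9 arrays. The highest signal on any array was under 200 for 35 probe sets, whereas 13 had a group mean above 1000. The tested members were dimmer than all units (median of the mean log2 signals 7.69 against 8.69) and varied more between arrays of a group (median within-group SD 0.47 against 0.35).

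**Figure D1:**
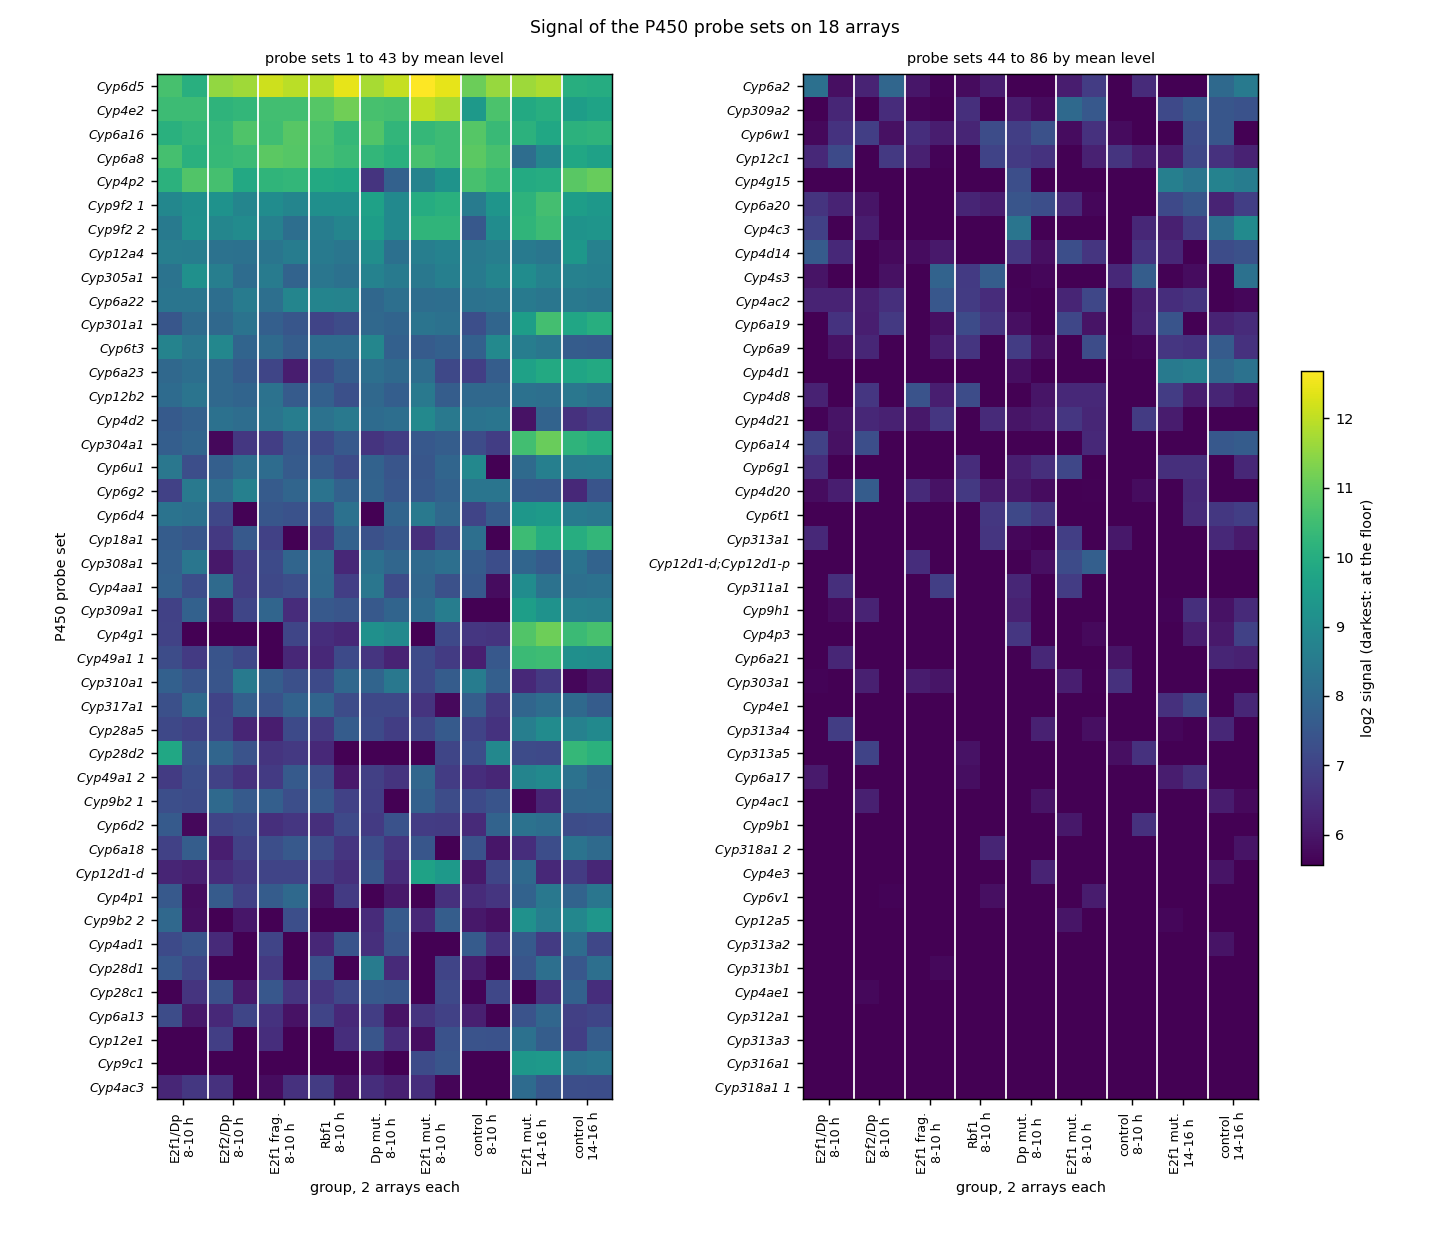
Log2 signal of the 86 P450 probe sets (rows, ordered by mean) on the 18 arrays (columns, 2 per group, with the UAS crosses and mutants left of the control of the same age); the darkest shade is the floor. Most probe sets of the right panel are at the floor on most arrays, and the 4 bottom rows are at the floor on all 18.

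The probe sets with the strongest signal differed between the ages. Probes differ in how well they bind, so this order is not one of transcript abundance. In the control at 14 to 16 h they were those of Cyp4p2, Cyp4g1, Cyp28d2, Cyp6a16 and Cyp18a1, with mean signals of 1972, 1478, 1190, 1149 and 1130. In the control at 8 to 10 h they were those of Cyp6d5, Cyp6a8, Cyp6a16, Cyp4p2 and Cyp4e2, with mean signals of 2633, 1742, 1578, 1445 and 1159. Cyp6a16 stayed between 893 and 1830 on all 18 arrays and passed in none of the 11 comparisons.

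Between 8 to 10 h and 14 to 16 h of the control cross, 11 P450 genes rose and 5 fell, 42.1% of those tested. Over all units 43.2% passed, 17.6% upward and 25.6% downward. The share of P450 genes that passed was thus close to the background, while its split differed: 28.9% of the P450 genes rose and 13.2% fell. This split has a limit. A gene near the floor at 8 to 10 h can rise but hardly fall, and it can clear the filter through bright late arrays. The members were dimmer than all units, and how far this shaped the split was not tested. The median log2 difference was 0.61 over the 38 members and -0.19 over all units, and 29 members had a positive one. The median of all units depended on the scaling (-0.16 on the deposited scale, -0.24 after median centring), and relative to it the members' median was 0.80.

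Cyp4g1, the oxidative decarbonylase that completes hydrocarbon synthesis in the oenocytes, rose most. Its signals were 1375 and 1581 in the control at 14 to 16 h and 104 and 99.5 at 8 to 10 h, a 14.5-fold difference (log2 3.86 ± 0.57, adjusted p = 7.52e-05). Of the 3 tested clan 2 genes, Cyp18a1 and Cyp304a1 rose with it. Cyp18a1, which inactivates ecdysone by 26-hydroxylation, had 1024 and 1235 at 14 to 16 h and 286 and the floor at 8 to 10 h (log2 3.27 ± 0.67, adjusted p = 0.00111). The 2 early arrays were far apart, and both lay below the late ones. Cyp304a1 had 1182 and 1031 at 14 to 16 h and 148 and 116 at 8 to 10 h (log2 3.07 ± 0.39, adjusted p = 2.11e-05).

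Among the mitochondrial P450s, Cyp301a1, which acts in the formation of the adult cuticle, had 878 and 1041 in the late control and 155 and 238 in the early one (log2 2.31 ± 0.36, adjusted p = 1.27e-04). Cyp49a1 had 556 and 531 in the late control, against 72.4 and 187 in the early one (log2 2.22 ± 0.47, adjusted p = 0.00152). Its other probe set moved the same way by less (log2 1.66, adjusted p = 0.0145 with every probe set tested). Cyp12a4, whose overexpression confers resistance to lufenuron, had 648 and 412 late and 352 and 393 early and did not pass (log2 0.47 ± 0.31).

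In clan 3, Cyp309a1 had 408 and 395 at 14 to 16 h, against the floor on both arrays at 8 to 10 h, at least 8.45-fold higher (adjusted p = 1.67e-04). Cyp6a23 had 859 and 949.8 late and 119.8 and 203 early (log2 2.54 ± 0.41, adjusted p = 1.58e-04). In these genes no late array overlapped an early one. Of the 4 tested Cyp28 genes, Cyp28d2, Cyp28a5 and Cyp28d1 also rose and Cyp28c1 did not pass (log2 0.77). Cyp28d2 had 1259 and 1121 in the late control and 152 and 478 in the early one, Cyp28a5 had 416 and 494 against 128 and 97.4, and Cyp28d1, next to Cyp28d2 in the genome, had 181 and 289.7 against 69.5 and the floor. Their log2 differences were 2.14, 2.02 and 2.00, with adjusted p of 0.0228, 0.00243 and 0.045. In clan 4, Cyp4p1 had 230.5 and 328 late and 87.1 and 101 early (log2 1.55 ± 0.59, adjusted p = 0.0454).

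The P450 genes that fell with age in the control were Cyp310a1, Cyp4d2, Cyp6g2, Cyp6d5 and Cyp6a8. Cyp310a1 had 52.2 and 62.6 at 14 to 16 h and 379.9 and 210.2 at 8 to 10 h (log2 -2.30 ± 0.47, adjusted p = 0.00103). Cyp6d5 had 1041 and 999 late and 2166 and 3100 early (log2 -1.34 ± 0.23, adjusted p = 2.44e-04). The late arrays lay well under the early ones in both genes. Cyp6a8, a gene overexpressed in insecticide-resistant strains, had 899 and 793 late and 1906 and 1578 early (log2 -1.04 ± 0.23, adjusted p = 0.00219). Cyp4d2 had 96.2 and 115 late and 313.5 and 322 early, and Cyp6g2 had 84.4 and 171 late and 324 and 325 early, with adjusted p of 0.0113 and 0.0223. Cyp6t3, which acts in ecdysone synthesis in the prothoracic gland, had 201 and 193 late and 214 and 488 early and did not pass (log2 -0.71 ± 0.44, adjusted p = 0.207).

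The calls differed in how much they rested on single arrays. Cyp4g1, Cyp18a1, Cyp304a1, Cyp301a1, Cyp49a1, Cyp309a1, Cyp6a23, Cyp28a5, Cyp310a1, Cyp6d5 and Cyp6a8 passed in each alternative in which they were tested, each array left out in turn included. Cyp4p1 and Cyp28d1 missed the threshold without any 1 of the 4 control arrays, with adjusted p between 0.0828 and 0.207 for Cyp4p1 and between 0.0792 and 0.206 for Cyp28d1. Cyp28d2 missed it without early replicate 1 (0.23), late replicate 1 (0.0994) or late replicate 2 (0.0743), and Cyp6g2 without early replicate 1 (0.078), early replicate 2 (0.0688) or late replicate 1 (0.217). Cyp4d2 missed it without late replicate 1 (0.0681). Markers of tissues known for P450 expression moved with age too. All 5 tested midgut markers rose, with summed signals of the 6 on the array between 7111 and 14080 at 14 to 16 h and between 974.8 and 1710 at 8 to 10 h. Such sums are of linear signals and mostly follow the brightest genes of a list. Of the epidermis and cuticle markers 5 of 6 rose, with sums between 25720 and 27530 late and between 5261 and 6847 early. Other lists moved less evenly. Of the tested markers 1 of 3 for fat body and 1 of 2 for Malpighian tubule rose, and 0 of 3 for ring gland passed. Of 4 tested oenocyte markers 2 rose, Cyp4g1 among them, and 1 fell. Their part in the P450 differences was not tested.

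In E2f1 mutants the same ages differed in 16 of the 38 P450 genes, 10 upward and 6 downward, again 42.1%. The background was 35.7% of all units, 13.9% upward and 21.7% downward. The limit given for the split in the control holds here too. The members' median log2 difference was 0.83, against -0.15 over all units (-0.25 on the deposited scale, -0.12 after median centring). The late mutants were selected by hand and the early ones by a sorter, and age cannot be told apart from this step. Of the 5 tested midgut markers 0 passed with age in the mutants, and 1 of them had a positive log2 difference (median -0.67). The sums were between 3373 and 4864 late and between 3718 and 4033 early. Most of these sums was Jon65Aiii, with mean signals of 3420 late and 2581 early. In the test of the difference from the control's age change, 3 midgut markers passed downward. In the mutants 4 of 6 epidermis and cuticle markers rose, with sums between 31000 and 35550 late and between 7884 and 10930 early. So did 3 of 4 oenocyte markers, Cyp4g1 among them, 1 of 2 Malpighian tubule markers and 1 of 3 ring gland markers. Of 3 tested fat body markers 1 fell. Their part in the P450 differences was not tested.

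Cyp4g1 again rose most in the mutants, with 1742 and 2208 at 14 to 16 h and 47.7 and 140.0 at 8 to 10 h (log2 4.58 ± 0.57, adjusted p = 2.54e-05). Cyp49a1 had 1379 and 1423 in the late mutants and 144 and 112 in the early ones (log2 3.47 ± 0.47, adjusted p = 5.68e-05). Cyp18a1 had 1392 and 1010 late and 92.2 and 139 early (log2 3.39 ± 0.67, adjusted p = 0.00109). No late array overlapped an early one in these 3 genes. Cyp304a1 had 1486 and 2151 late and 184 and 204 early, Cyp301a1 had 735 and 1501 against 320.2 and 297, and Cyp6a23 had 802 and 960.5 against 279 and 139.6, with log2 differences of 3.21, 1.77 and 2.15. Cyp4p1 (log2 2.05), Cyp317a1 (1.82), Cyp28a5 (1.48) and Cyp4p2 (0.96) also rose.

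The genes that fell with age in the mutants were led by Cyp12d1-d, a mitochondrial P450 that xenobiotics induce. It had 254 and 83.5 at 14 to 16 h and 811 and 681 at 8 to 10 h (log2 -2.35 ± 0.55, adjusted p = 0.00356). Cyp6a8 had 279.8 and 457 late and 1559 and 1401 early (log2 -2.05 ± 0.23, adjusted p = 1.21e-05). Cyp4e2 had 949 and 1042 late and 4159 and 3461 early (log2 -1.93 ± 0.28, adjusted p = 9.41e-05). All 3 were brighter on both early arrays than on either late one. Cyp4d2, Cyp6d5 and the tested probe set of Cyp9b2 also fell, with log2 differences of -1.80, -0.82 and -1.52 and adjusted p of 0.0066, 0.0104 and 0.0211. Cyp9b2 has a probe set that went the other way (log2 1.86, adjusted p = 0.0543 with every probe set tested), so no direction is given for that gene's transcripts.

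Without replicate 1 of the early mutants 10 P450 genes passed in place of 16. Cyp9b2, Cyp4p1, Cyp6d5, Cyp4d2, Cyp28a5 and Cyp4p2 missed the threshold there, with adjusted p of 0.141, 0.126, 0.0967, 0.0628, 0.131 and 0.226. Cyp12d1-d missed it without late replicate 2 (0.0626) and Cyp317a1 without early replicate 2 (0.0675). Without late replicate 1, Cyp9b2 (0.149), Cyp6d5 (0.0763), Cyp4d2 (0.11) and Cyp4p2 (0.102) missed it, and without late replicate 2, Cyp4p1 (0.101), Cyp28a5 (0.122) and Cyp4p2 (0.117).

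**Figure D2:**
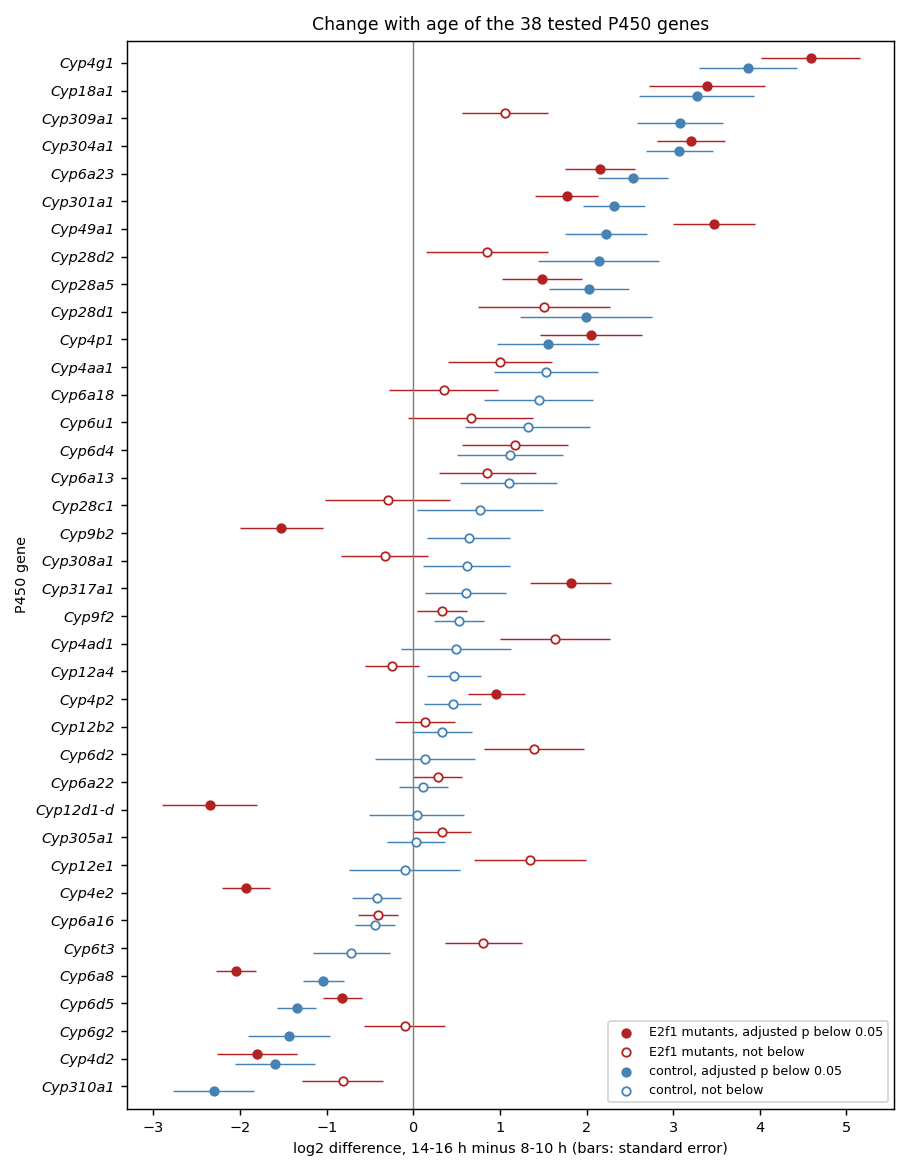
Log2 difference between 14 to 16 h and 8 to 10 h for the 38 tested P450 genes in E2f1 mutants (red) and in the control (blue), with bars of 1 standard error and filled points where the adjusted p was below 0.05. Cyp4g1 is at the top with 4.58 in the mutants and 3.86 in the control, and Cyp12d1-d stands at -2.35 in the mutants and 0.04 in the control.

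The 2 age comparisons share no array. Both passed for 11 members, in the same direction each time, which is 68.8% of either list; over all units 2307 passed in both, 72.1% of the mutant list and 59.5% of the control list. The sign of the age difference was the same in 31 of 38 members (81.6%) and in 76.7% of all units. The test of the difference itself, the age change in E2f1 mutants minus that in the control, passed for 0 of 38 members in limma and for 2.75% of all units; 7 members had an unadjusted p under 0.05. The nearest to the threshold were Cyp4e2 (log2 -1.51 ± 0.40, adjusted p = 0.0563), Cyp9b2 (-2.16 ± 0.68, adjusted p = 0.0985) and Cyp12d1-d (-2.39 ± 0.77, adjusted p = 0.11). The genes that passed at one genotype and not at the other are therefore not shown to differ between genotypes. Single genes passed under some alternatives: Cyp4e2 with a log2 offset of 50 (adjusted p = 0.04996), with the lowest 50% left out (0.0479) and without control replicate 2 of 8 to 10 h (5.60e-04), the shared probe set of Cyp12d1-d and Cyp12d1-p without the dim filter (0.0245), and Cyp6a8 without mutant replicate 2 of 14 to 16 h (0.036).

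Some members that the dim filter left out had clear signal late. A gene that is bright only in 1 or 2 of 9 groups has a low mean, so these genes are described from the fit without that filter and support no count. Cyp4g15, the other member of the Cyp4g family, had 398 and 323 in E2f1 mutants at 14 to 16 h and the floor on both arrays at 8 to 10 h. In the control it had 423 and 379 late and the floor on both arrays early. Both ages were thus apart in both genotypes (adjusted p = 3.98e-04 in the mutants and 2.31e-04 in the control, without the filter). Cyp4d1 had 359 and 390.3 in late mutants and 252 and 305 in the late control, against the floor on all 4 early arrays of these genotypes. Cyp9c1 had 649.9 and 672 in late mutants and 148 and 176 in early mutants, against 297 and 324 in the late control and the floor on both arrays in the early control.

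Cyp4c3 had 73.4 and 112 in the late mutants and 283 and 505 in the late control. Cyp6a2, another gene overexpressed in resistant strains, had the floor on both arrays in the late mutants and 258 and 360.3 in the late control; its early control arrays had the floor and 86.7. The late groups did not overlap in either gene, but neither passed between them in the fit without the filter (adjusted p = 0.186 for Cyp4c3 and 0.0612 for Cyp6a2). Cyp6a14, with the floor on both arrays in the late mutants and 185 and 199.5 in the late control, did pass there (adjusted p = 0.0439). Other dim members passed upward in the late mutants in that fit. They were Cyp9c1 (log2 1.09, adjusted p = 0.00199), Cyp6a17 (0.77, 0.0195) and Cyp4e1 (0.85, 0.0430), and the last 2 did not exceed 133 on any array. Cyp9c1 was also higher in E2f1 mutants of 8 to 10 h (log2 1.76, adjusted p = 3.12e-04). Cyp6a20, a gene known from male aggression, had 77.4 and 119 in the late control and the floor on both arrays in the early one. Cyp303a1, which acts in sensory bristles, Cyp4d21, known from male mating, and Cyp6g1, the gene behind DDT resistance, did not exceed 137 on any array, with most values at or near the floor. The second probe set of Cyp9b2 passed the dim filter but was not the brightest of its gene by mean. It had 469.9 and 639 in the late control and 65.8 and 58.1 in the early one (log2 3.15, adjusted p = 0.00237 with every probe set tested), where the brighter probe set had 242 and 246 late and 143 and 172 early; in the control both were higher late, by unequal amounts.

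**Figure D3:**
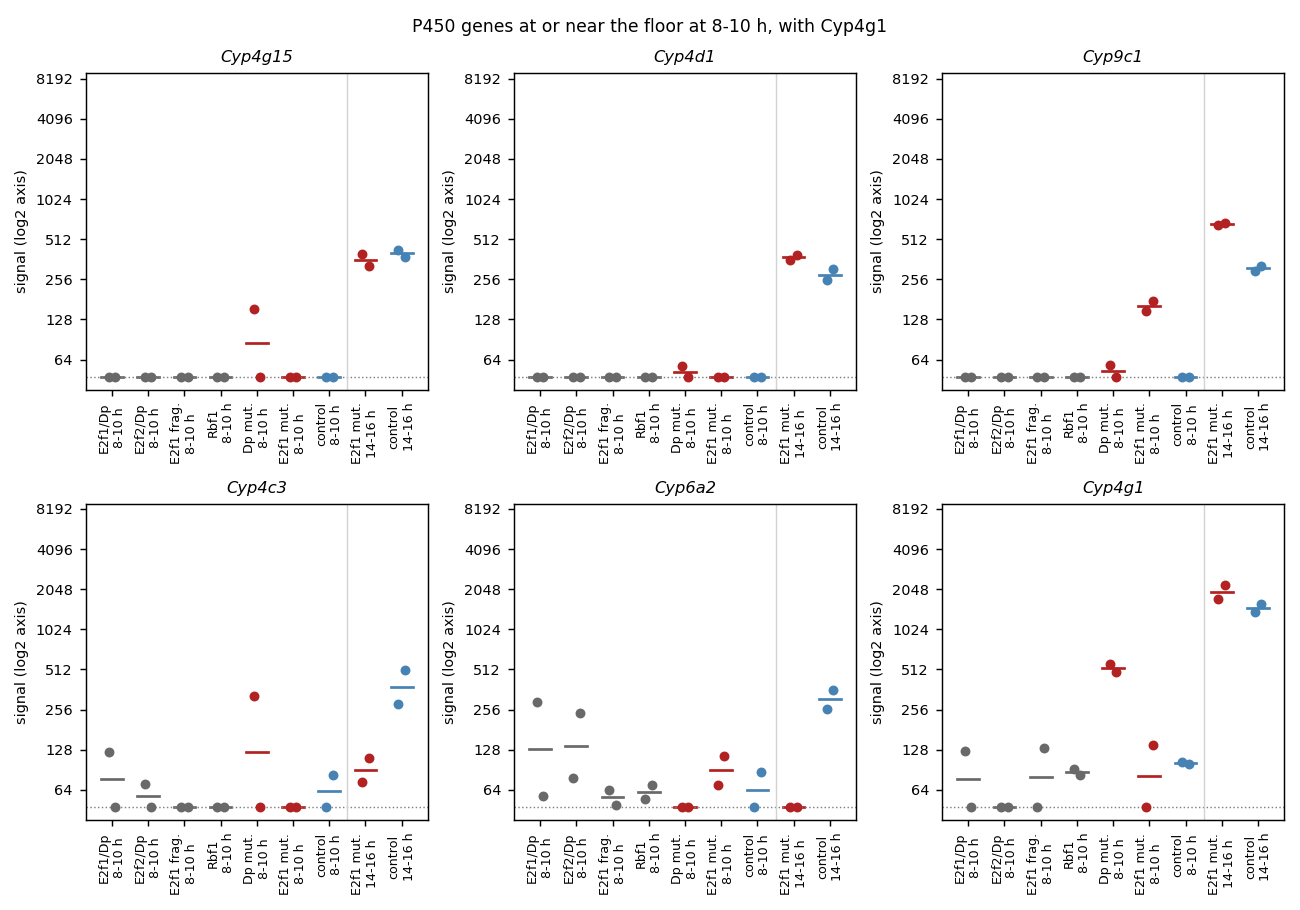
Signal on each array (log2 axis; points are arrays, bars the mean of their log2 values, the dotted line the floor) for 5 P450 genes left out by the dim filter, chosen after their values were seen, and for Cyp4g1. Cyp4g15, Cyp4d1 and Cyp4g1 are high in both groups of 14 to 16 h, right of the grey line, and Cyp6a2 is at the floor in late E2f1 mutants.

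In the 4 overexpression crosses, where few units passed at all, no P450 gene had a difference that passed. At 8 to 10 h, E2f1/Dp, E2f2/Dp, E2f1 fragment and Rbf1 embryos were each set against the same control arrays, and 0 of 38 members passed in limma in each. The background was 0.0891%, 0.0780%, 0.791% and 1.44% of all units in that order, so 0 of 38 is near it in each cross. Unadjusted p-values under 0.05 were found for 3, 0, 3 and 4 members. Cyp6d5 was among them in 3 crosses. It had 1557 and 1075 in E2f1/Dp embryos, 4500 and 3944 in E2f1 fragment embryos and 3889 and 5516 in Rbf1 embryos, against 2166 and 3100 in the control, with adjusted p of 0.16, 0.22 and 0.0928. Both E2f1/Dp arrays were under the control and the others above it.

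Cyp309a1 was at the floor on both control arrays of 8 to 10 h. It had 123 and 221 in E2f1/Dp, 59.7 and 132 in E2f2/Dp, 236 and 88.5 in E2f1 fragment and 189 and 174 in Rbf1 embryos. The smallest adjusted p of the 4 was 0.0722, in Rbf1 embryos. Without control replicate 2, Cyp4e2 passed in E2f1/Dp, E2f1 fragment and Rbf1 embryos (log2 1.01, 1.10 and 1.54, adjusted p = 0.0277, 0.0101 and 0.00104), and Cyp6d5 in Rbf1 embryos (log2 1.10, adjusted p = 0.0289). None of the 3 marker genes of the list, Cyp4p2, Cyp4g1 and Cyp12d1-d, passed in any of these crosses. Cyp4p2 had 1136 and 1723, 1530 and 942, 1207 and 1254 and 958 and 899 in E2f1/Dp, E2f2/Dp, E2f1 fragment and Rbf1 embryos, against 1580 and 1310 in the control. Cyp4g1 stayed between the floor and 133 in the 4 crosses, and Cyp12d1-d between 74 and 131.

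In Dp mutants of 8 to 10 h 3 P450 genes passed against the control, 7.89% of those tested, where 4.0% of all units did. Cyp4p2, a clan 4 gene next to Cyp4p1 and Cyp4p3, fell most. It had 99.7 and 221 in Dp mutants and 1580 and 1310 in the control, 9.7-fold lower (log2 -3.28 ± 0.33, adjusted p = 1.43e-04). Both mutant arrays lay under all 10 arrays of the driver crosses. Cyp4g1 had 565 and 487 in Dp mutants and 104 and 99.5 in the control (log2 2.37 ± 0.57, adjusted p = 0.0315). Cyp309a1 had 188 and 234 in Dp mutants, at least 4.41-fold higher than the control at the floor (adjusted p = 0.0283). Both genes were higher on each mutant array than on either control array. The Dp mutant arrays of Cyp309a1 lay within the range of the driver crosses, from the floor to 236.

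Cyp4p2 kept its call without any single array, whereas the calls of Cyp4g1 and Cyp309a1 rested on few. Cyp4g1 missed the threshold without any 1 of the 4 arrays, with adjusted p of 0.176 and 0.0832 without Dp mutant replicates 1 and 2 and 0.142 and 0.0571 without control replicates 1 and 2. Cyp309a1 missed it without Dp mutant replicate 1 (0.116) or 2 (0.108) or control replicate 1 (0.128). Without control replicate 2, Cyp4e2 passed as well (log2 1.15, adjusted p = 0.0035). A stage index, the mean of 300 genes that rose most between the control ages minus that of 300 that fell most, with P450 genes left out and the control ages set to 0 and 1, averaged 0.246 in Dp mutants (SD 0.13, n = 2), where the control arrays of that age had an SD of 0.075. With the control interpolated to that index Cyp4p2 passed (log2 -3.39, adjusted p = 6.87e-05), and Cyp4g1 (adjusted p = 0.162) and Cyp309a1 (0.12) did not. Cyp28d2 (log2 -3.03, adjusted p = 0.0175) and Cyp6d5 (log2 0.91, adjusted p = 0.0252) passed there. The index was 0.337 and 0.154 on the 2 Dp mutant arrays. It was built from the control arrays, and a genotype may shift its genes without a shift in stage. The interpolation therefore cannot tell stage apart from genotype. Midgut markers were high in Dp mutants as well: 4 of 5 rose, with sums between 7460 and 15290 in Dp mutants and between 974.8 and 1710 in the control. Of 4 tested oenocyte markers, Cyp4g1 itself was the one that rose. Their part in the P450 differences was not tested.

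In E2f1 mutants of 8 to 10 h 5 P450 genes passed against the same control arrays, 13.2% of those tested, where 2.55% of all units did. Cyp12d1-d had 811 and 681 in E2f1 mutants and 65.3 and 134 in the control, 7.96-fold higher (log2 2.99 ± 0.55, adjusted p = 0.00753). A second probe set, which cannot separate Cyp12d1-d from its near-identical neighbour Cyp12d1-p, had 147 and 212 in the mutants and the floor on both arrays in the control. Which of the 2 copies rose was not tested. On the 10 driver-cross arrays the lowest, median and highest signals of Cyp12d1-d were 65.3, 99 and 134, all below the E2f1 mutants.

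Cyp4e2, a clan 4 gene, had 4159 and 3461 in E2f1 mutants and 692 and 1625 in the control (log2 1.84 ± 0.28, adjusted p = 0.00267). Cyp6d5 had 6607 and 5464 in the mutants and 2166 and 3100 in the control (log2 1.21 ± 0.23, adjusted p = 0.00865). Both genes were higher on each mutant array than on either control array, although the early control arrays of Cyp4e2 differed by more than 2-fold. Cyp309a1 had 267 and 387 in the mutants, at least 6.77-fold higher than the control at the floor (adjusted p = 0.00729). Cyp4p2 fell here too: it had 433 and 602 in E2f1 mutants and 1580 and 1310 in the control (log2 -1.49 ± 0.33, adjusted p = 0.0258). The sizes of its fall in the 2 mutants, which share the control arrays, were not tested against each other. Cyp4g1, with 47.7 and 140.0 in E2f1 mutants, did not pass (log2 -0.31 ± 0.57, adjusted p = 0.827).

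Cyp4e2 kept its call without any single array. Without control replicate 1 it was the 1 member that passed, and without E2f1 mutant replicate 1 it passed with Cyp309a1. Cyp12d1-d missed the threshold without these arrays (0.1 and 0.0784), as did Cyp6d5 (0.113 and 0.106) and Cyp4p2 (0.163 and 0.181). Cyp309a1 missed it without control replicate 1 (0.0552) or E2f1 mutant replicate 2 (0.0573). In a fit of these 4 arrays alone none of the 5 passed, and 0 of the 3 did so in Dp mutants. The stage index averaged 0.222 in E2f1 mutants (SD 0.022, n = 2), and all 5 genes passed with the control interpolated to it. The limit given for this interpolation in Dp mutants holds here too. Of the tissue markers, 1 of 5 midgut and 1 of 3 fat body markers rose. The midgut sums were between 3718 and 4033 in E2f1 mutants and between 974.8 and 1710 in the control. The fat body sums were between 8656 and 10390 in E2f1 mutants and between 3132 and 5467 in the control. Most of the fat body sums was apolpp, with mean signals of 8318 in E2f1 mutants and 3851 in the control. Their part in the P450 differences was not tested.

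The 4 mutant arrays of 8 to 10 h were next set against all 10 arrays of the driver crosses. Here 8 P450 genes passed, 6 upward and 2 downward, 21.1% of those tested, where 10.8% of all units did. Cyp4p2 had 99.7 and 221 in Dp mutants and 433 and 602 in E2f1 mutants, against a lowest, median and highest signal of 899, 1231 and 1723 in the driver crosses (log2 -2.15 ± 0.20, adjusted p = 5.75e-06). The mutant arrays did not overlap the driver crosses. Cyp6d5 had 3494 and 4292 in Dp mutants and 6607 and 5464 in E2f1 mutants, against 1075, 3182 and 5516 in the driver crosses (log2 0.74 ± 0.13, adjusted p = 0.00268). Its mutant arrays overlapped the range of the crosses, which the low E2f1/Dp and high Rbf1 embryos widened.

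Cyp12d1-d (log2 1.63, adjusted p = 0.00492), Cyp4e2 (0.79, 0.00733) and Cyp4g1 (1.44, 0.0123) also passed; in each, 1 mutant lay far above the crosses and the arrays of the other lay within or near their range. Cyp309a1 (log2 1.20, adjusted p = 0.0159) passed too, as it had in each mutant against the control. Its Dp mutant arrays (188 and 234) lay within the range of the driver crosses, from the floor to 236. Its E2f1 mutant arrays (267 and 387) lay above that range. Both control arrays were at the floor, the lowest of the crosses. The comparison of each mutant with the control and the age comparison of the control share these arrays. Cyp9f2, a clan 3 gene, had 805 and 492 in Dp mutants and 1005 and 1084 in E2f1 mutants, against 373, 543 and 627 in the driver crosses (log2 0.67 ± 0.17, adjusted p = 0.02). Its other probe set had 736 and 492 in Dp mutants and 1196 and 1203 in E2f1 mutants. The driver crosses had 186, 431 and 561 there. With every probe set tested, that probe set passed for E2f1 mutants against the control at 8 to 10 h (log2 1.95, adjusted p = 0.0139), where the brighter one did not. Cyp28d2 was at the floor on both Dp mutant arrays and had the floor and 133 in E2f1 mutants, against the floor, 161 and 904 in the driver crosses (log2 -1.46 ± 0.42, adjusted p = 0.0341). Cyp4p2, Cyp6d5, Cyp4e2 and Cyp12d1-d kept this call without any single array. Without Dp mutant replicate 1, 4 members passed, and without E2f1 mutant replicate 2, 5 did. The adjusted p without these arrays was 0.0529 and 0.0822 for Cyp309a1, 0.0683 and 0.0858 for Cyp4g1 and 0.152 and 0.0788 for Cyp9f2. Cyp28d2 missed the threshold without Dp mutant replicate 1 (0.113) or 2 (0.0837), E2f1 mutant replicate 1 (0.187), E2f1 fragment replicate 2 (0.0538), E2f2/Dp replicate 1 (0.0613) or Rbf1 replicate 1 (0.0625), and Cyp9f2 also without E2f1 mutant replicate 1 (0.0575) and Cyp309a1 also without Dp mutant replicate 2 (0.0627).

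An F test for any difference among the 7 groups of 8 to 10 h passed for 7 P450 genes, 18.4% of those tested, where 10.4% of all units passed. In order of adjusted p they were Cyp4p2 (7.32e-05), Cyp6d5 (2.80e-04), Cyp4e2 (0.00689), Cyp12d1-d (0.0105), Cyp4g1 (0.0141), Cyp309a1 (0.0227) and Cyp28d2 (0.043). The first of these had its lowest arrays in Dp mutants, then E2f1 mutants. Cyp28d2 also varied within groups: its E2f1/Dp arrays had 904 and 170.2 and its control arrays 152 and 478, and it missed the threshold without any 1 of 10 arrays, with adjusted p between 0.0546 and 0.0953. Cyp4p2 and Cyp6d5 passed in every alternative. Without E2f1 mutant replicate 1, 4 genes passed, with adjusted p of 0.0682 for Cyp4e2 and 0.119 for Cyp12d1-d; Cyp12d1-d also missed without E2f1 mutant replicate 2 (0.0764), Cyp4g1 without Dp mutant replicate 1 (0.126) or 2 (0.0852), and Cyp309a1 without control replicate 1 (0.0646) or 2 (0.0537) or E2f1 mutant replicate 2 (0.0638).

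**Figure D4:**
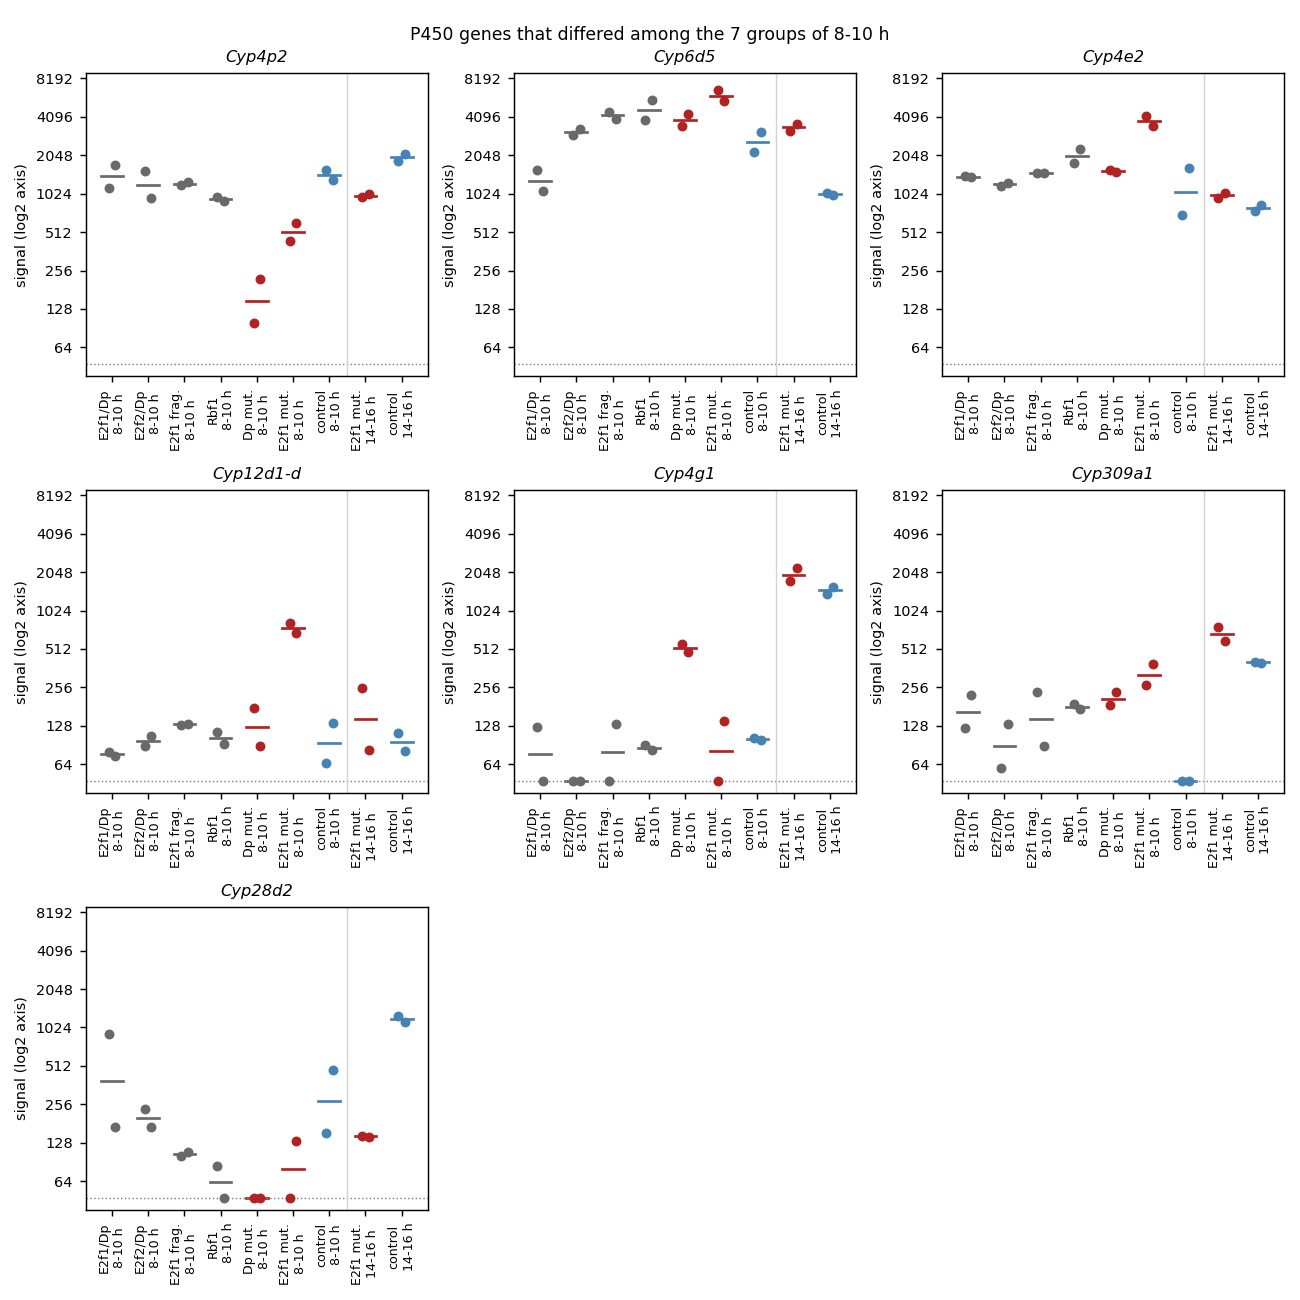
Signal on each array (log2 axis; points are arrays, bars the mean of their log2 values, the dotted line the floor) for the 7 P450 genes that passed the F test at 8 to 10 h; UAS crosses in grey, mutants in red, control in blue, and the groups of 14 to 16 h right of the grey line. Cyp4p2 is low in both mutants, Cyp12d1-d and Cyp4e2 are high in E2f1 mutants of 8 to 10 h, and Cyp4g1 is high in Dp mutants and at both groups of 14 to 16 h.

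At 14 to 16 h, 4 P450 genes passed between E2f1 mutants and the control, 1 upward and 3 downward, 10.5% of those tested, where 5.60% of all units did. Cyp6d5 had 3189 and 3625 in the mutants and 1041 and 999 in the control (log2 1.74 ± 0.23, adjusted p = 3.26e-04). It was thus higher in E2f1 mutants at both ages. Cyp28d2 had 146 and 142 in the mutants and 1259 and 1121 in the control (log2 -3.05 ± 0.70, adjusted p = 0.0176). Cyp6a8 had 279.8 and 457 in the mutants and 899 and 793 in the control (log2 -1.24 ± 0.23, adjusted p = 0.00445). No mutant array overlapped a control array in these genes. The probe set of Cyp9b2 that was tested had 50.4 and 78.9 in the mutants and 242 and 246 in the control (log2 -1.96 ± 0.48, adjusted p = 0.0238), while its other probe set had 572 and 389 in the mutants and 469.9 and 639 in the control and did not pass (log2 -0.22).

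Cyp4p2 had 972 and 1011 in late E2f1 mutants and 1863 and 2080 in the late control and did not pass (log2 -0.99 ± 0.33, adjusted p = 0.101). Cyp12d1-d (log2 0.60 ± 0.55, adjusted p = 0.646) and Cyp4g1 (0.41 ± 0.57, adjusted p = 0.793) did not pass either. Cyp6d5 kept its call without any single array. Cyp28d2 missed the threshold without any 1 of the 4 (adjusted p between 0.0797 and 0.133), Cyp6a8 without control replicate 1 (0.0609) or mutant replicate 1 (0.0715), and Cyp9b2 without control replicate 1 (0.145) or 2 (0.116) or mutant replicate 1 (0.179). The late mutants had a stage index of 0.88 (SD 0.012, n = 2), against 1 in the control, and midgut marker sums between 3373 and 4864, against 7111 to 14080 in the control. Of the 5 tested midgut markers 2 fell. The sums of the epidermis and cuticle markers were between 31000 and 35550 in the late mutants and between 25720 and 27530 in the late control. Of these 6 markers 1 passed, downward. The fat body sums were between 10170 and 14090 in the late mutants and between 8395 and 8499 in the late control. Most of the fat body sums was apolpp, with mean signals of 11710 in the late mutants and 7999 in the late control. Of 3 tested fat body markers 0 passed. Their part in the P450 differences was not tested.

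**Figure D5:**
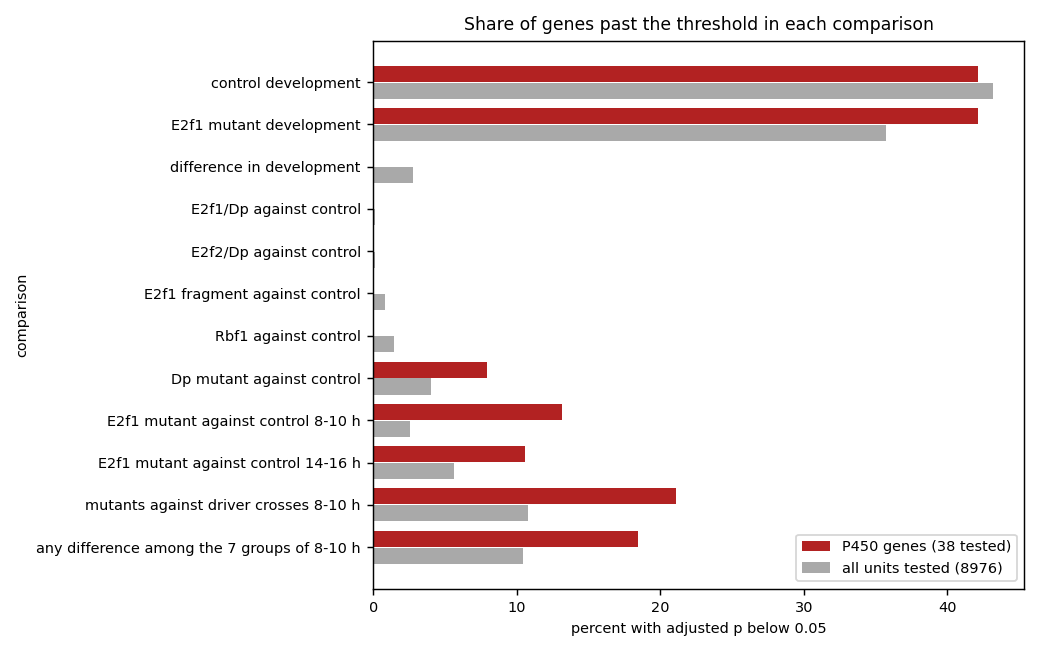
Percent of the 38 tested P450 genes (red) and of all 8976 units (grey) with an adjusted p below 0.05 in each comparison. The shares are 42.1% and 43.2% for development of the control. For E2f1 mutants against the control at 8 to 10 h they are 13.2% and 2.55%. In the 4 overexpression crosses they are 0% of P450 genes and between 0.0780% and 1.44% of all units.

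By clan, the changes with age in the control were 2 rises among 6 mitochondrial genes, 2 rises among 3 of clan 2, 5 rises and 4 falls among 22 of clan 3, and 2 rises and 1 fall among 7 of clan 4. In E2f1 mutants they were 2 rises and 1 fall, 2 rises, 3 rises and 3 falls, and 3 rises and 2 falls in the same order of clans. Over all units 17.6% rose and 25.6% fell in the control, and 13.9% and 21.7% in the mutants. With so few tested genes per clan, these counts do not show that clans differed, and this was not tested. By position, RefSeq places 43 of the 82 genes in 15 runs of adjacent P450 genes, and 39 stand alone. Neighbours did not all move alike. In the longest run, 9 genes from Cyp6a22 to Cyp317a1, Cyp6a23 rose and Cyp6a8 fell in the control, Cyp6a22 stayed between 246 and 447 on all 18 arrays, and most of the others were dim. Cyp28d1 and Cyp28d2 are neighbours and both rose with age. Cyp4p2 fell in Dp mutants. Its neighbour Cyp4p1 had the floor and 65.5 in Dp mutants and 87.1 and 101 in the control. It was lower as well but did not pass (log2 -0.75 ± 0.59, adjusted p = 0.53), which does not show that these neighbours differed. For mutants against driver crosses Cyp4p1 passed downward in limma with a log2 offset of 50 (-0.95, adjusted p = 0.0402) and with no floor (-1.90, 0.0331). Cyp4p3 was too dim to be tested. Cyp4e2, high in E2f1 mutants, lies beside Cyp4e1, which was at the floor on every array of 8 to 10 h. Cyp309a1 and its neighbour Cyp309a2 were both higher in E2f1 mutants of 8 to 10 h, Cyp309a2 with 257 and 186 in the mutants and the floor on both arrays in the control (adjusted p = 0.0229 without the dim filter). Neighbours of near-identical sequence can share probes, and this was not examined.

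Across the 11 comparisons 22 of the 38 tested members passed at least once and 16 in none. The matching share over all units was not computed. Development of the control alone passed for 43.2% of all units, so this count does not set the P450 genes apart. The 16 were Cyp12a4, Cyp12b2, Cyp12e1, Cyp28c1, Cyp305a1, Cyp308a1, Cyp4aa1, Cyp4ad1, Cyp6a13, Cyp6a16, Cyp6a18, Cyp6a22, Cyp6d2, Cyp6d4, Cyp6t3 and Cyp6u1. Cyp4aa1 came closest, with a lowest adjusted p of 0.051 for development of the control and signals between 56.1 and 519 over the 18 arrays; it passed there with the replicate number as a block (0.0137), on the deposited scale (0.0449) and without early replicate 1 (0.0121). Cyp12e1, Cyp308a1, Cyp4ad1, Cyp6a18, Cyp6d2, Cyp6d4 and Cyp6u1 passed under at least 1 alternative in some comparison, Cyp6u1 with the smallest adjusted p (6.08e-04, development of the control without early replicate 1). Cyp305a1 ranged between 231 and 568, with a median of 382, and Cyp12b2 between 157 and 351, with a median of 253. Missing the threshold does not show that their levels were equal.

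Other genes of the same pathways were counted for comparison. Of the ecdysone P450s with Halloween names, which make the hormone that Cyp18a1 inactivates, shd fell with age in the control (log2 -0.98 ± 0.38, adjusted p = 0.0463), and dib and sad did not pass. Of the 6 listed, 4 were found on the array and 3 were tested. Among the redox partners, the ferredoxins Fdx1 (log2 1.47 ± 0.41, adjusted p = 0.00867) and Fdx2 (1.05 ± 0.29, adjusted p = 0.00872) rose, and Cyt-b5 did not pass. Neither ferredoxin passed with age in E2f1 mutants (log2 0.54 and 0.53, adjusted p = 0.327 and 0.171). The early control had the lowest mean of Fdx1 at 8 to 10 h, 138, and Rbf1 embryos the next, 222. Of 5 listed redox partners 3 were found on the array, and P450 reductase was not among them. Of 29 tested glutathione S-transferase genes, whose enzymes conjugate products of P450s, 14 rose and 1 fell with age in the control (median log2 difference 0.95), and of 16 tested Ugt genes, for UDP-glycosyltransferases, 9 rose and 1 fell (median 1.14). Over all units 17.6% rose and 25.6% fell. The limit given for the P450 split, that dim genes can rise but hardly fall, holds for these lists too. On the array were 34 glutathione S-transferase genes and 33 Ugt genes, and those not tested were too dim. A list of regulators, not limited to those of detoxification, had 7 tested genes: Hr96, cnc, Keap1, maf-S, ss, tgo and Hr4. Of these, maf-S, ss and tgo fell with age in the control (log2 -1.32, -1.36 and -0.73) and none rose.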

How the data were processed

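Signal on 18 arrays was analysed, 2 for each of 9 groups taken from the sample labels. The deposited table holds linear probe-set intensity, which the authors had scaled to a common level: the mean after trimming 2% at each end lay between 495.5 and 497.8 on every array. The summarising software is not given in the sources used here, and genome coordinates were not used. Gene names came from the platform annotation, updated through RefSeq (Release 6); 12443 probe sets named 1 gene, 327 several and 1196 none.

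The deposited signals were quantile normalized, set to a floor at the 20th percentile, log2 transformed and filtered (4189 probe sets, 30%, removed). The brightest probe set of each gene was kept. limma 3.58.1 (R 4.3.3) fitted 1 mean per group over the 18 arrays, followed by eBayes(trend=TRUE), with 9 residual and 6.16 prior degrees of freedom; tests were two-sided, with Benjamini-Hochberg adjustment over 8976 units. The number of arrays limits the precision. The steps were tested on simulated data.

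The P450 members and all gene lists were chosen with earlier results of these data known. Members named are the 3 marker genes, the 5 brightest in the control at each age, those that passed, and 12 with a described role. No 2 arrays of a group were duplicates. Same-numbered arrays did not deviate together (correlations from -0.161 to 0.150 over 36 pairs of groups), so they were not paired. Promoter and protein sequences were not used.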

Additional observations from a re-analysis of the deposited data

How the results depend on the processing

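Of 59 gene results that passed, 26 passed in each alternative in which they were tested, 28 passed with each array left out in turn, and 0 changed direction. With the lowest 50% left out, fewer members are tested, and 7 passed for development of the control, 8 for development of E2f1 mutants, 1 for their difference, 1 for Dp mutants, 2 for E2f1 mutants of 14 to 16 h, 4 for mutants against driver crosses and 3 for the F test. With no filter 7 passed for E2f1 mutants of 14 to 16 h and 1 for the difference in development, which was also 1 with a log2 offset of 50. In fits of the compared groups alone, with fewer residual degrees of freedom, 0 passed for Dp mutants, 0 for E2f1 mutants of 8 to 10 h and 4 for the F test.

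With each array left out in turn the counts ranged from 11 to 16 for development of the control, 10 to 16 for development of E2f1 mutants, 0 to 1 for their difference, 0 to 1 for E2f1/Dp, 0 to 0 for E2f2/Dp, 0 to 1 for the E2f1 fragment, 0 to 2 for Rbf1, 1 to 3 for Dp mutants, 1 to 6 for E2f1 mutants of 8 to 10 h, 1 to 3 for those of 14 to 16 h, 4 to 9 for mutants against driver crosses and 4 to 7 for the F test. Where a group was left with 1 array, that array was assumed to vary like the other groups. The replicate number as a block (a replicate block) moved no count by over 1.5 times; with it Cyp4p1 missed the threshold for development of the control (adjusted p = 0.0508) and Cyp28d2 for the F test (0.0573), while Cyp4aa1 passed for development of the control (0.0137). The cause of these changes was not tested. Signal near the floor limits the dim members: a value there is only an upper bound, and its spread between arrays is hidden.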
